A study of Mus musculus with 37 samples.

Results

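The genes described here are the 3 neurofilament genes, Nefl, Nefm and Nefh, and Tcfl5, a gene for a basic helix-loop-helix transcription factor. They are 4 of 35542 genes in a raw count table from RNA-seq of single mouse tailbuds. They were chosen because RNA of Nefl, Nefm and Tcfl5 was lower at later somite numbers in control embryos, so the control trend is given below as a description and was not tested. Nefh was taken along as the remaining neurofilament subunit, and its counts did not follow that trend, so the description "falling with stage" does not hold for it.

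The series profiled the tailbud of 37 embryos at embryonic day 8 to 8.5, cut below the last formed somite, with 1 library per embryo, to ask how loss of maternal SMCHD1, a chromatin protein that takes part in gene silencing, changes expression in this tissue. Embryos had 6, 7, 8, 9, 10 or 11 somites, the blocks of mesoderm that are added with time and so date an embryo. All were F1 hybrids of C57BL/6 mothers and Castaneus fathers. Control embryos (Smchd1wt, genotype Smchd1 fl/+, n = 21) came from Smchd1 fl/fl mothers that carried no Cre transgene (MMTV-Cre +/+). Maternally deleted embryos (Smchd1matΔ, genotype Smchd1 del/+, n = 16) came from Smchd1 del/fl mothers with the MMTV-Cre transgene (T/+), which removed Smchd1 from the oocyte. The Smchd1matΔ embryos were thus heterozygous as well as derived from oocytes without SMCHD1, and effects of the lower zygotic dose and of the missing oocyte protein cannot be told apart here. The groups at 6 to 11 somites held 4, 4, 3, 3, 4 and 3 Smchd1wt embryos and 4, 3, 2, 2, 3 and 2 Smchd1matΔ embryos. All embryos with 6 somites and all Smchd1matΔ embryos with 8 or 9 somites were female.

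Neurofilaments are the intermediate filaments of neurons. The light (Nefl), medium (Nefm) and heavy (Nefh) subunits co-assemble in axons with α-internexin (Ina) or peripherin (Prph), and the heavy subunit is known to accumulate late, as axons mature. The tailbud, by contrast, holds axial progenitors that feed the spinal cord and the presomitic mesoderm. Tcfl5 is best known from male germ cells, where the protein is needed for meiosis and sperm formation.

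In the GRCm38 genome with GENCODE M21, Nefl and Nefm lie side by side on chromosome 14 and share exonic bases on opposite strands. Nefl spans chr14:68083863-68089095 on the plus strand. Nefm spans chr14:68082590-68124846 on the minus strand because its longer transcript, Nefm-202, has a distant last exon that runs across the first exon of Nefl. The shared stretch is 1108 bases, which is 32.8% of the exonic bases of Nefl and 19.2% of those of Nefm. The other Nefm transcript, Nefm-201, has 3 exons between positions 68119283 and 68124846 and does not reach Nefl. Nefh on chromosome 11 (4938754 to 4948064, minus strand) overlaps no exon of another gene. Tcfl5 on chromosome 2 (180621956 to 180642708, minus strand) shares 234 exonic bases, 7.39% of its own, with Col9a3, a cartilage collagen gene on the other strand.

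**Figure D1:**
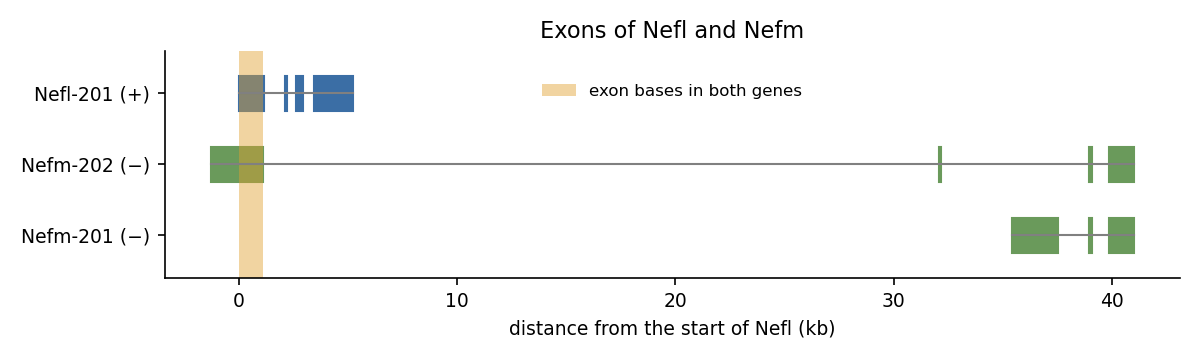
Exons of Nefl-201, Nefm-202 and Nefm-201 against the distance from the first base of Nefl in kb, with the exonic stretch that Nefl and Nefm share shaded. The shaded part, 0 to 1.107 kb, covers nearly all of the first exon of Nefl and a part of the distant last exon of Nefm-202, and Nefm-201 lies outside it.

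The stretch in which both annotated transcripts are coding is shown here because a read from it cannot be given to either gene without knowing its strand. The sequence is chr14:68084827-68085009 of GRCm38 on the plus strand, 183 bases long, and capitals mark the 144 bases that are coding in Nefl-201 and, on the other strand, in Nefm-202.
Nefl-201 and Nefm-202 shared coding bases: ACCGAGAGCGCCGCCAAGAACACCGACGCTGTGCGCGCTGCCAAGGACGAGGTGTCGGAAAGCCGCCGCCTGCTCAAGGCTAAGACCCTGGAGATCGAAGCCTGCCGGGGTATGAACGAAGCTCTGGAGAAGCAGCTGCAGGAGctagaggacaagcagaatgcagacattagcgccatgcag

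Counts of the table did include reads of a gene on the opposite strand. Over 155 genes with at least a share of 0.5 of their exonic bases under exons of an opposite-strand gene with 30000 or more counts, the counts found were 0.569 to 0.841 times those predicted from the partner (median per library, 37 libraries). Reads of Nefl spread evenly over its exons would then make up 20.4% to 42.8% of the Nefm counts in Smchd1wt embryos (median 26.9%) and 18.5% to 32.5% in Smchd1matΔ embryos (median 28.1%). Reads of Col9a3 would make up 0.314% to 1.84% of the Tcfl5 counts in Smchd1wt embryos and 0.405% to 1.43% in Smchd1matΔ embryos. The same holds in the other direction: reads of Nefm spread evenly over its exons would make up 14.7% to 30.8% of the Nefl counts in Smchd1wt embryos (median 23.3%) and 19.3% to 33.9% in Smchd1matΔ embryos (median 22.4%). Each prediction takes all counts of the partner as its own, so the 2 directions cannot both hold in full, and neither was scaled by the ratios found above. Nefm-201 does not reach Nefl, so the share of Nefm reads in Nefl also depends on how much Nefm-202 is used, which is not known. Every value of Nefl and of Nefm below is therefore uncertain by what the other contributes. The tested slope of each is also given after the predicted share was subtracted.

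Of the 4 genes, 1 was matched in the RefSeq promoter table, and the promoter of this gene, Tcfl5, is shown for the base composition and motifs given after it. The window is chr2:180642709-180642941 of GRCm38.p6 on the minus strand, the 233 bases before the annotated transcript, with the 3 GC boxes (GGGCGG) in capitals.
Tcfl5 promoter: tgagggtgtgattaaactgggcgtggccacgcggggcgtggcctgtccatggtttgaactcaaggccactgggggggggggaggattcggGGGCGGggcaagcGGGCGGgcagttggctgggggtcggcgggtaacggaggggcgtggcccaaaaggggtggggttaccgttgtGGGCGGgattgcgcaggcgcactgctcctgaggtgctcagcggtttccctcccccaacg

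Composition and motifs were taken from the first 250 bases of the RefSeq promoter sequence. The 233 bases shown are part of these, and the rest lie inside the annotated transcript. Of the 250 bases, 70.4% were G or C, against a median of 52% over 27025 promoters. The GC box, searched on both strands, was found 3 times, and 32.9% of promoters hold at least 1 copy. The general E-box CANNTG was found 1 time and is held by 66.0% of promoters. The letters CACGTG (6.05% of promoters), CTTTGA (14.1%), TCACACCT (1.14%), CATAAA (11.1%), CATTGT (11.0%), ATGCAAAT (1.61%) and TATAAA (13%) were not in this window on either strand.

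Library totals were 3061180 to 80579115 counts in Smchd1wt embryos (median 11959774) and 916444 to 30156555 in Smchd1matΔ embryos (median 14215130). Levels are given as CPM, the counts of a gene per 1000000 counts of its library, whose total was scaled by the trimmed mean of M-values. Over the 37 embryos Nefl had 5.67 to 21.3 CPM (median 12.5), Nefm 5.14 to 32.6 CPM (median 13.6), Nefh 0 to 6.06 CPM (median 3.61) and Tcfl5 11.0 to 38.8 CPM (median 19.3). Per kb of exon, with all annotated exons of a gene merged, the medians were 3.70 CPM for Nefl, 2.35 for Nefm, 0.903 for Nefh and 6.09 for Tcfl5. Tcfl5 was thus the most abundant RNA of the 4 on a length-corrected scale and Nefh the least. The merged exons of Nefm hold 5782 bases but its transcripts 3334 and 3680, so its order against Nefl depends on the length used. The median counts behind these levels were 154, 177, 42 and 233. The variation between embryos of the same group (25 degrees of freedom) had a coefficient of 15.6% for Nefl, 21.8% for Nefm, 39.5% for Nefh and 19.7% for Tcfl5, where counting alone gave medians of 8.39%, 7.72%, 15.5% and 6.35%. Smchd1 itself was lower in Smchd1matΔ embryos, with 88.7 against 138 CPM at 6 and 7 somites and 91.5 against 153 CPM at 10 and 11 somites (log2 fold change over all stages -0.74, SE 0.075, edgeR quasi-likelihood adjusted p = 1.45e-07). Here as throughout, fewer cells of a type and less RNA per cell cannot be told apart in bulk tissue.

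Some libraries stood apart. In Smchd1matΔ embryos with 6 somites, replicates 1 and 2 had 2.77% and 1.82% of their counts at the ribosomal RNA locus, against 0.176% to 1.28% in the other 35 libraries. Replicate 1 of this group held no Nefh count among 6868952, and 3.26% of 2089 genes with mean levels of 2 to 6 CPM were at 0 in it. In the 34 other libraries of over 4000000 counts at most 0.761% were. Replicate 3 of the same group was the shallowest library, with 916444 counts, and 38.9% of such genes were at 0 there. Tests that lost their call without these libraries are given both ways, and so are the likeness values that moved without the library with no Nefh count.

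Nefl, the subunit that neurofilament assembly depends on, had its highest mean levels in embryos with 6 to 8 somites and lower ones from 9 somites on. In Smchd1wt embryos its level was 17.5, 14.9, 17.5 and 17.6 CPM at 6 somites, 16.7, 13.8, 16.3 and 13.4 CPM at 7 somites and 14.3, 16 and 10.7 CPM at 8 somites. At 9 somites it was 9.81, 7.85 and 8.24 CPM, at 10 somites 9.12, 8.09, 10.4 and 7.12 CPM, and at 11 somites 5.67, 8.76 and 7.78 CPM. No control embryo with 10 or 11 somites reached the lowest with 6 or 7. The means at 6 and 7 somites differed by 1.82 CPM, just beyond the larger SD of 1.72 CPM, with overlap between embryos. The means at 8 and 10 somites differed by 5.0 CPM with no overlap, and the 9, 10 and 11 somite groups did not differ beyond their spread.

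In Smchd1matΔ embryos Nefl had 18.4, 16.5, 15.4 and 16.3 CPM at 6 somites, 21.3, 16.5 and 14.8 CPM at 7 somites and 12.1 and 15.6 CPM at 8 somites. It had 10.7 and 8.30 CPM at 9 somites, 9.86, 9.15 and 12.5 CPM at 10 somites and 11.9 and 8.42 CPM at 11 somites. Again no embryo with 10 or 11 somites reached the lowest with 6 or 7. The highest value of all embryos, 21.3 CPM, was that of a Smchd1matΔ embryo with 7 somites.

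Nefm, the medium subunit, was also lower at later stages, over a wider range. In Smchd1wt embryos it was 21.3, 23.9, 24.8 and 19.7 CPM at 6 somites, 25.6, 13.2, 22.3 and 21 CPM at 7 somites and 18.1, 15.9 and 9.74 CPM at 8 somites. It was 11.4, 10.5 and 10.3 CPM at 9 somites, 6.99, 10.1, 10.8 and 7.94 CPM at 10 somites and 5.14, 9.00 and 10.5 CPM at 11 somites. The embryos with 6 or 7 somites did not overlap those with 10 or 11, and 1 embryo with 7 somites, at 13.2 CPM, was well below the rest of its stage. Neighbouring means differed beyond the spread from 7 to 8 somites (5.92 CPM, larger SD 5.28) and, barely, from 9 to 10 (1.81 CPM, larger SD 1.78), with overlap in both.

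In Smchd1matΔ embryos Nefm was 32.6, 22.6, 17.5 and 19.5 CPM at 6 somites, 24.1, 19.4 and 18.1 CPM at 7 somites and 16.6 and 19.3 CPM at 8 somites. It was 11.1 and 11.2 CPM at 9 somites, 10.2, 10.6 and 12.6 CPM at 10 somites and 13.6 and 8.73 CPM at 11 somites. The means at 8 and 11 somites, neighbours in the order of levels, differed by 6.79 CPM without overlap, and those at 9, 10 and 11 somites lay within their spread. The 32.6 CPM came from replicate 1 at 6 somites, the library with no Nefh count.

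Nefh, the heavy subunit of mature axons, was low throughout and did not follow the other subunits. In Smchd1wt embryos it was 3.26, 2.61, 2.99 and 3.63 CPM at 6 somites, 3.14, 1.64, 3.12 and 1.46 CPM at 7 somites and 2.44, 5.13 and 2.90 CPM at 8 somites. It was 4.28, 4.02 and 3.69 CPM at 9 somites, 0.593, 4.01, 4.16 and 3.80 CPM at 10 somites and 2.87, 4.38 and 3.61 CPM at 11 somites. Every stage overlapped its neighbours in the order of levels.

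In Smchd1matΔ embryos Nefh was 0, 4.98, 5.48 and 3.87 CPM at 6 somites, 3.79, 3.43 and 3.6 CPM at 7 somites and 3.78 and 5.30 CPM at 8 somites. It was 3.83 and 2.97 CPM at 9 somites, 3.54, 2.92 and 6.06 CPM at 10 somites and 2.29 and 4.49 CPM at 11 somites. None of the 5 steps between neighbours in the order of levels exceeded the spread in either genotype. In the library at 0, 3 counts would have been 0.452 CPM, so a level of up to that value cannot be told from 0 there.

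Tcfl5 was also highest at 6 and 7 somites, with more overlap between stages. In Smchd1wt embryos it was 30.4, 33.8, 30.3 and 28.5 CPM at 6 somites, 29.3, 19.1, 25.8 and 25.8 CPM at 7 somites and 16.1, 19.9 and 19.3 CPM at 8 somites. It was 18.6, 14.7 and 16.6 CPM at 9 somites, 15.2, 13.9, 20.4 and 14.5 CPM at 10 somites and 13.6, 12.3 and 14.5 CPM at 11 somites. The larger differences came early, from 6 to 7 and from 7 to 8 somites (5.76 and 6.55 CPM, against spreads of up to 4.27 CPM), and the later neighbours did not differ beyond their spread.

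In Smchd1matΔ embryos Tcfl5 was 38.8, 25.5, 16.4 and 25.7 CPM at 6 somites, 19.6, 24.5 and 32.1 CPM at 7 somites and 25.2 and 19.0 CPM at 8 somites. It was 25.9 and 19.9 CPM at 9 somites, 17.8, 11.0 and 18.8 CPM at 10 somites and 14.5 and 15.2 CPM at 11 somites. The step that exceeded the spread came later than in controls, between 8 and 10 somites (6.28 CPM, no overlap), although whether the timing differs was not tested. Of the Smchd1matΔ embryos with 10 or 11 somites, 3 of 5 were below the lowest with 6 or 7 somites, against 6 of 7 in controls. Both lowest values came from the shallowest library of their genotype. In Smchd1matΔ embryos it was 16.4 CPM on 15 counts, and all others with 6 or 7 somites had at least 19.6 CPM, above the late maximum of 18.8 CPM. In controls it was 19.1 CPM on 58 counts, and all others had at least 25.8 CPM, above the late maximum of 20.4 CPM.

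**Figure D2:**
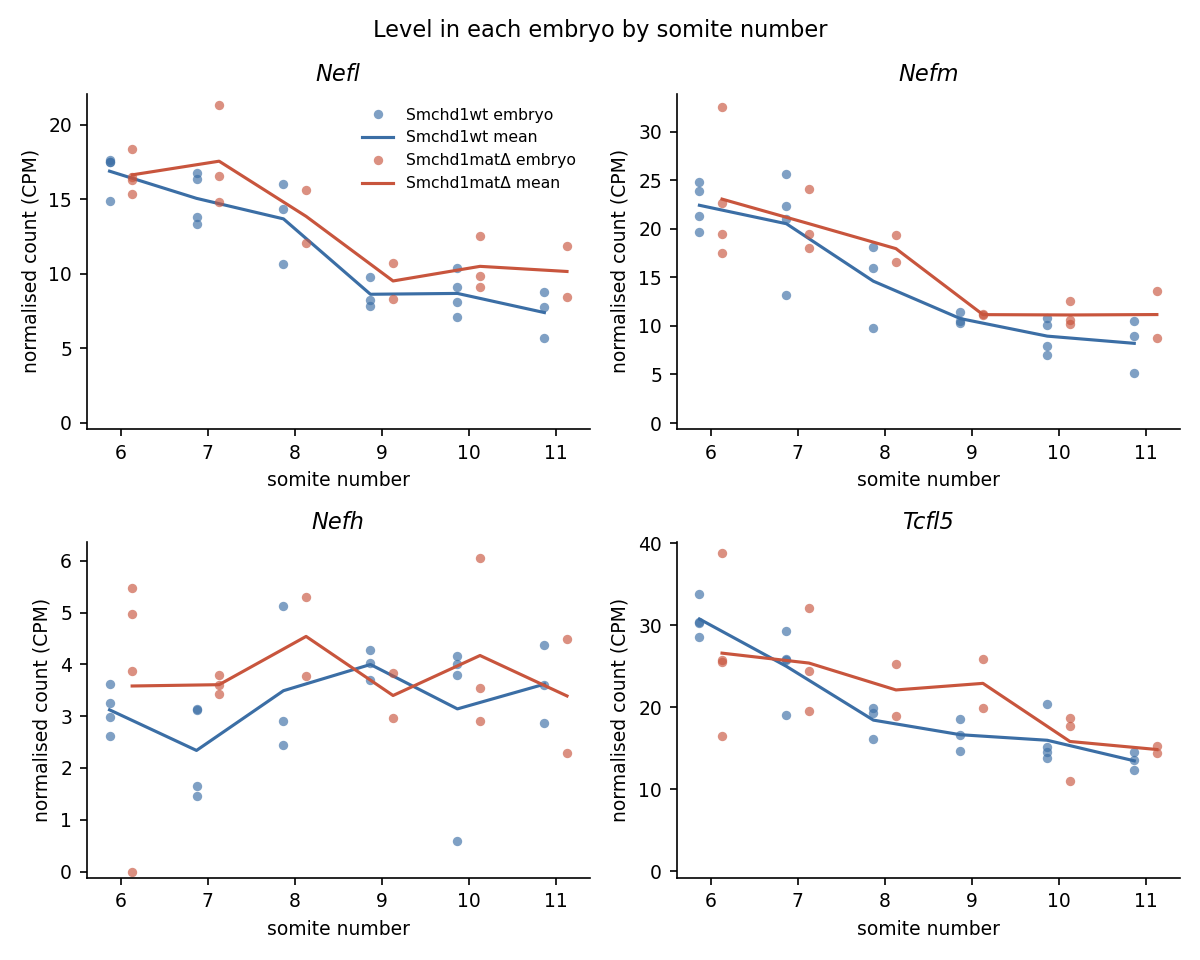
Level of Nefl, Nefm, Nefh and Tcfl5 in CPM against the number of somites, with a point for each embryo and a line through the group means for Smchd1wt and Smchd1matΔ. Nefl and Nefm are lower from 9 somites on in both genotypes, Tcfl5 declines with more overlap, and Nefh stays between 0 and 6.06 CPM without a trend.

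Averaged over pairs of stages, Nefl had 16 ± 1.72 CPM (SD, n = 8) at 6 and 7 somites and 8.14 ± 1.51 CPM (n = 7) at 10 and 11 somites in Smchd1wt embryos, a ratio of 1.963. In Smchd1matΔ embryos the means were 17.0 ± 2.20 CPM (n = 7) and 10.4 ± 1.76 CPM (n = 5), a ratio of 1.64. The ratios of early to late means were 2.49 and 1.97 for Nefm, 1.87 and 1.69 for Tcfl5 and 0.816 and 0.931 for Nefh, Smchd1wt first. The early level was thus the higher for every member except Nefh in both genotypes.

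The slope on somite number was tested in the 16 Smchd1matΔ embryos, whose values the control trend did not use although earlier results in them were known, with edgeR's quasi-likelihood test and sex as a covariate. Nefl fell by 0.20 log2 units per somite (SE 0.038, adjusted p = 0.00555, 95% interval -0.28 to -0.13) and Nefm fell by 0.27 (SE 0.042, adjusted p = 0.00106, -0.35 to -0.19). Tcfl5 fell by 0.16 per somite (SE 0.043, adjusted p = 0.043, -0.25 to -0.08). The slope of Nefh was 0.04 (SE 0.109, adjusted p = 0.894, -0.17 to 0.26). Genes that fell made up 1.14% of the 15477 tested (177 genes), and 3 of the 4 members were among them. Genes that rose made up 1.93%, and Nefh was not among them. The members were chosen by the same measure in the other genotype, so their count is not that of genes picked without it.

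The Nefl slope was past the threshold without any single library, and so was that of Nefm. In the 11 female embryos alone the slope of Nefl was -0.19 with an adjusted p of 0.072 and that of Nefm -0.28 with an adjusted p of 0.0118 by the same edgeR test. After the predicted Nefm reads were taken off, the Nefl slope was -0.18 (SE 0.041, edgeR adjusted p = 0.0193). After the predicted Nefl reads were taken off, the Nefm slope was -0.29 (SE 0.047, edgeR adjusted p = 0.0015). For Tcfl5 the slope kept its sign without any single library (-0.18 to -0.14), but it was past the threshold in only 6 of the 16 fits, with edgeR adjusted p-values of 0.0124 to 0.158. The call was lost without replicate 1 at 6 somites, replicate 1, 2 or 3 at 7 somites, replicate 1 or 2 at 8 somites, replicate 2 at 9 somites, replicate 3 at 10 somites and replicate 1 or 2 at 11 somites.

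In Smchd1wt embryos, where the trend chose the genes, the slopes were -0.26 (SE 0.030) for Nefl, -0.33 (SE 0.039) for Nefm, -0.23 (SE 0.026) for Tcfl5 and 0.06 (SE 0.068) for Nefh. Of 15148 genes, 3.51% fell and 3.13% rose in this fit. The Smchd1matΔ slope less the Smchd1wt slope was 0.06 (SE 0.045) for Nefl, 0.07 (SE 0.057) for Nefm, -0.03 (SE 0.124) for Nefh and 0.06 (SE 0.047) for Tcfl5. For the 3 genes with a trend, the Smchd1matΔ slope was the shallower, and because these differences involve the slopes that chose the genes they were not tested.

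Over single steps of the course, Nefl in Smchd1matΔ embryos changed by -0.54 log2 units (SE 0.158) from 6 and 7 to 8 and 9 somites and by -0.24 (SE 0.173) from there to 10 and 11 somites. Nefm changed by -0.64 (SE 0.202) and -0.37 (SE 0.225), and Tcfl5 by -0.28 (SE 0.169) and -0.50 (SE 0.188). None of these single steps passed edgeR's test over 16729 genes, with adjusted p-values of 0.352 for Nefl and 0.45 for Nefm in the early step and 1 for Tcfl5 in the late step. The early step called 2 genes (0.012%), with 989 at an unadjusted p under 0.05 and 80 called by DESeq2. The late step called 0 genes (0.0%), with 523 and 15 in turn. In Smchd1wt embryos, as a description, the early and late steps were -0.58 and -0.40 for Nefl, -0.79 and -0.55 for Nefm and -0.65 and -0.29 for Tcfl5.

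The ratio of 2 members within an embryo needs no scaling by library size, and it was followed on the log2 scale with 0.5 added to each count. At 0 or few counts the added 0.5 makes the ratio depend on depth. In the library with no Nefh count it set the log2 ratio of Nefh to Nefl, at -7.94. The log2 ratio of Nefm to Nefl in Smchd1matΔ embryos was 0.35 at 6 and 7 somites and 0.10 at 10 and 11 somites, with a slope of -0.063 per somite (permutation test over the 16 embryos, two-sided, 100000 resamples, p = 0.0197, adjusted over 3 ratios 0.059). Without the library with no Nefh count the slope was -0.041 (permutation p = 0.0583, adjusted 0.175). In Smchd1wt embryos it was -0.072. With the predicted Nefl reads taken off Nefm, the mean log2 ratio in Smchd1matΔ embryos was -0.09 at 6 and 7 somites and -0.42 at 10 and 11 somites, with a slope of -0.086 (permutation p = 0.0176, not among the 3 adjusted; 0.0521 without the library with no Nefh count). Reads were taken off Nefm alone here and the Nefl counts were left whole, so a lower ratio was bound to follow. Which of the 2 RNAs was the more abundant early cannot be read from this subtraction. The steeper course of Nefm than of Nefl from the counts as deposited was not past the threshold once adjusted.

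The log2 ratio of Nefh to Nefl had a slope of 0.36 per somite in Smchd1matΔ embryos (permutation p = 0.0708, adjusted 0.106), and of 0.10 without the library with no Nefh count (permutation p = 0.139, adjusted 0.209). It was 0.30 in Smchd1wt embryos. The ratio of Tcfl5 to Nefl had a slope of 0.017 (permutation p = 0.787) in Smchd1matΔ and 0.026 in Smchd1wt embryos. Its mean in Smchd1matΔ embryos was 0.57 at 6 and 7 somites and 0.57 at 10 and 11 somites, and in Smchd1wt embryos 0.79 and 0.88.

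**Figure D3:**
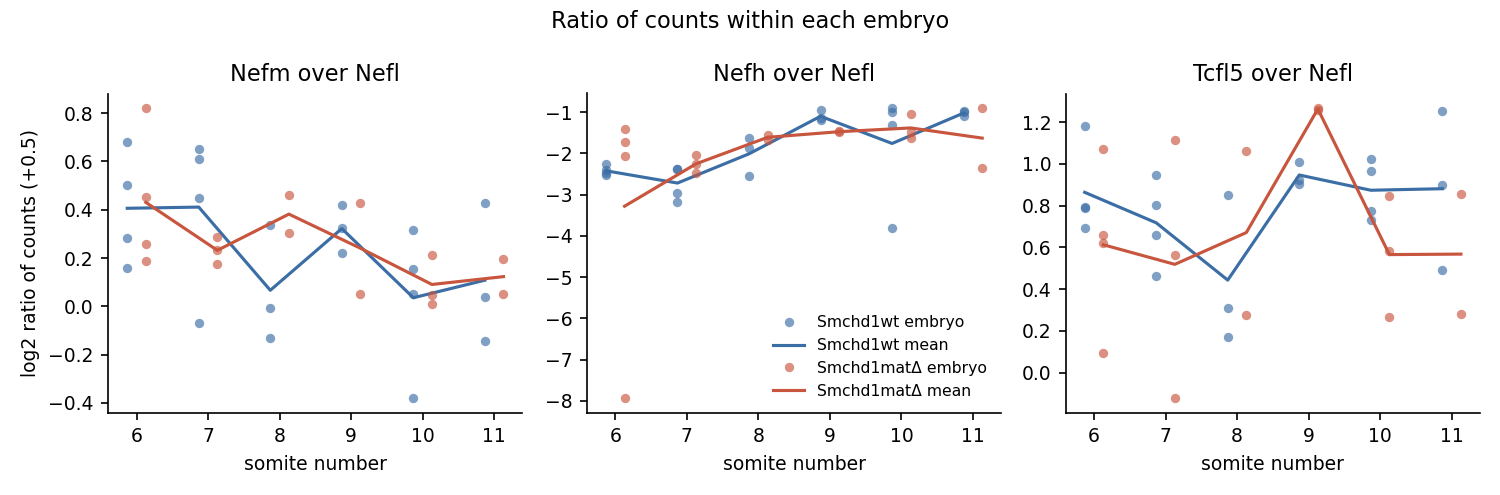
Log2 ratio of counts within each embryo, with 0.5 added to each count, for Nefm, Nefh and Tcfl5 over Nefl against the number of somites in both genotypes. Nefm over Nefl drifts down by 0.063 per somite in Smchd1matΔ embryos, Nefh over Nefl drifts up with 1 point far below the rest, and Tcfl5 over Nefl is level.

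To ask whether maternal SMCHD1 affected these genes, genotypes were compared over all stages with somite number and sex in the model. Nefl was 0.18 log2 units higher in Smchd1matΔ embryos (SE 0.077, 95% interval 0.03 to 0.33) with an unadjusted p of 0.0256 and an edgeR adjusted p of 0.867. Nefm differed by 0.18 (SE 0.099, -0.02 to 0.37), Nefh by 0.19 (SE 0.219, -0.24 to 0.62) and Tcfl5 by 0.07 (SE 0.086, -0.09 to 0.24). No member passed the test, whose calls were 2 of 15978 genes (0.0125%), with 906 at an unadjusted p under 0.05 and 4 called by DESeq2. The Smchd1matΔ embryo was above the Smchd1wt mean of its stage in 10 of 16 embryos for Nefl, 12 for Nefm, 11 for Nefh and 10 for Tcfl5.

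At 6 to 8 somites the genotype difference was 0.11 (SE 0.114) for Nefl, 0.13 (SE 0.146) for Nefm, 0.27 (SE 0.333) for Nefh and 0.02 (SE 0.125) for Tcfl5. At 9 to 11 somites it was 0.27 (SE 0.121, unadjusted p = 0.0323, edgeR adjusted p = 1), 0.26 (SE 0.156), 0.03 (SE 0.333) and 0.20 (SE 0.131) in the same order. The early window called 2 genes of 16729 (0.012%; 1214 at an unadjusted p under 0.05, 31 by DESeq2) and the late window 1 (0.00598%; 221 and 14), and none was a member. At single stages the differences ran from -0.0048 to 0.42 for Nefl, -0.01 to 0.45 for Nefm, -0.37 to 0.58 for Nefh and -0.14 to 0.41 for Tcfl5. No stage called any gene with edgeR (0.0% at each), with 1964, 243, 301, 169, 180 and 369 genes at an unadjusted p under 0.05 and 90, 28, 11, 12, 4 and 32 called by DESeq2 at 6 to 11 somites. The lowest edgeR adjusted p of a member at any stage was 0.819, for Tcfl5.

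**Figure D4:**
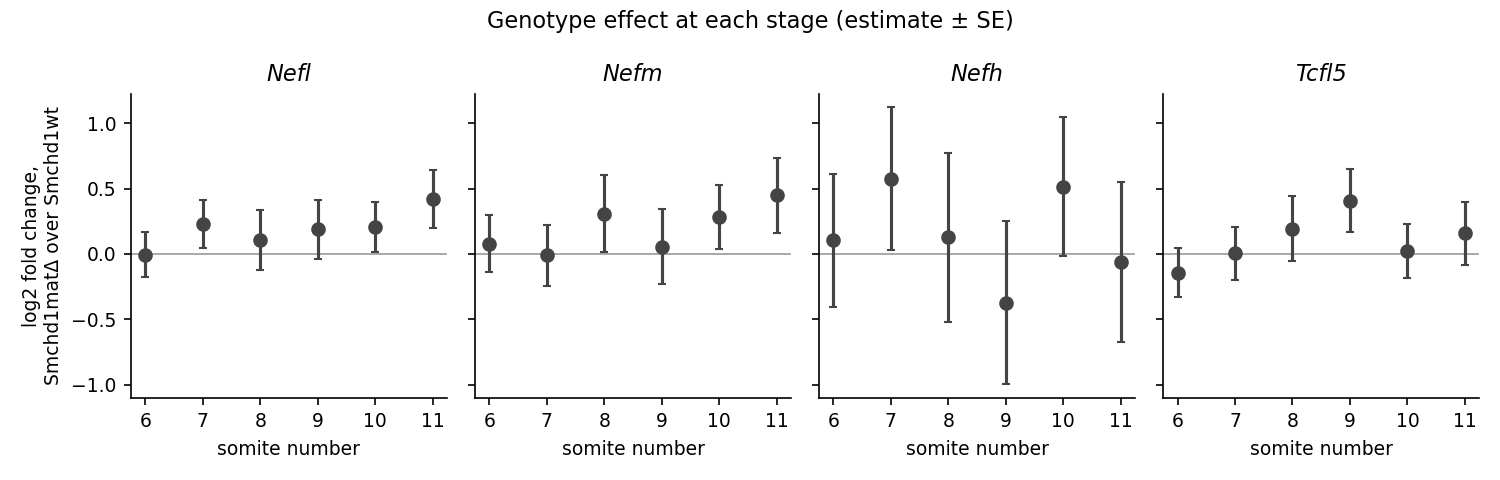
Log2 fold change of Smchd1matΔ over Smchd1wt embryos at each number of somites for the 4 genes, with bars of 1 SE. The estimates for Nefl run from -0.0048 to 0.42 and those for Nefh, with the widest bars, from -0.37 to 0.58.

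Males and females were compared because sex was not balanced over the stages. The difference of male less female embryos over all stages was 0.15 (SE 0.091) for Nefl, 0.04 for Nefm, -0.26 for Nefh and -0.16 (SE 0.101) for Tcfl5, with an edgeR adjusted p of 1 for each. Sex called 35 genes (0.219%), and no member was among them.

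Among 14 other intermediate filament genes, 13 were tested for a slope in Smchd1matΔ embryos, and 2 fell and 0 rose. These were the other subunits of neuronal filaments. Ina, the gene of α-internexin, fell by 0.34 log2 units per somite (SE 0.067, edgeR adjusted p = 0.00745), from 10.4 ± 4.60 CPM (n = 7) at 6 and 7 somites to 3.92 ± 1.18 CPM (n = 5) at 10 and 11 somites, and controls had 6.78 ± 2.20 (n = 8) and 2.95 ± 0.818 CPM (n = 7). Prph, the gene of peripherin, fell by 0.46 (SE 0.117, edgeR adjusted p = 0.0381), from 4.68 ± 4.0 to 1.15 ± 0.478 CPM, with 3.86 ± 2.06 and 1.36 ± 0.748 CPM in controls. The Ina call was lost in females alone (edgeR adjusted p = 0.0835). The Prph call was lost there too and without replicate 1 at 6 somites (slope -0.31, edgeR adjusted p = 0.0919), replicate 2 or 3 at 7, 1 or 2 at 8, 2 at 9, 1 or 3 at 10 or 2 at 11 somites.

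The filament genes of progenitors and epithelia did not pass. The slope was 0.03 for Vim (vimentin, of mesenchymal and progenitor cells), -0.02 for Nes (nestin, of neural progenitors) and -0.13 for Krt18 (a simple epithelial keratin, edgeR adjusted p = 0.161). The median slope over the list was -0.13, beside a median of 0.00241 over all genes tested. Of the 13 genes 11 had a slope below 0, so lower values were not limited to neuronal filaments. At an unadjusted p under 0.05 there were 5, where 17.5% of all genes were, and 1.14% of all genes were called as falling. In Smchd1wt embryos 3 genes of the list fell, Ina and Prph among them, and 1 rose, with a median of -0.10 beside -0.00182. Of all genes 3.51% fell and 3.13% rose there.

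**Figure D5:**
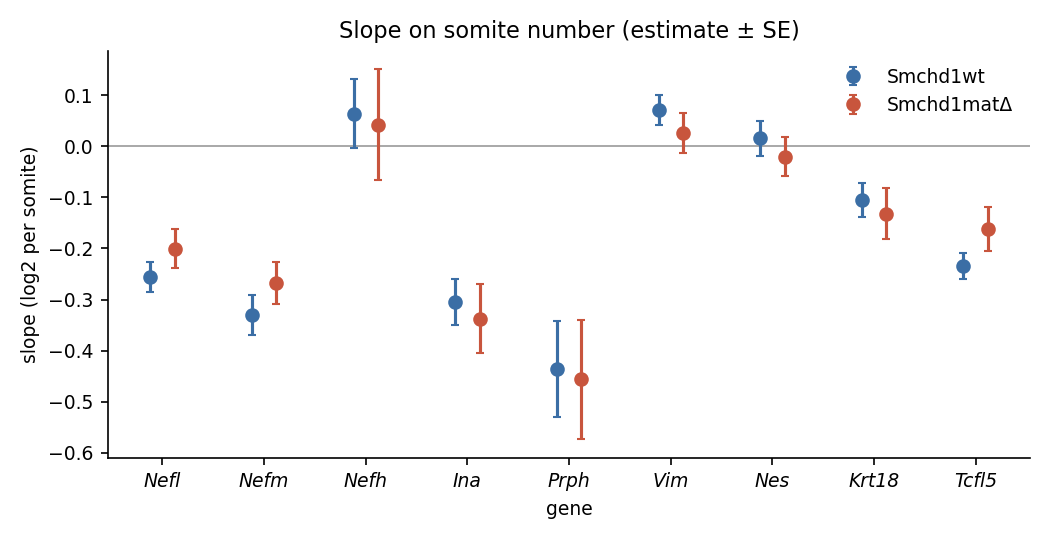
Slope on somite number in log2 units per somite, with bars of 1 SE, for the 4 genes and for Ina, Prph, Vim, Nes and Krt18 in Smchd1wt and Smchd1matΔ embryos. Nefl, Nefm, Ina, Prph, Krt18 and Tcfl5 lie below 0 in both genotypes, and Nefh, Vim and Nes lie near 0.

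Of 38 genes of neuronal differentiation 21 were tested, and 1 rose and 1 fell in Smchd1matΔ embryos, with a median slope of 0.01. Over all genes tested 3.07% passed in either direction. At an unadjusted p under 0.05 there were 13 of the 21, where 17.5% of all genes were, and DESeq2 called 6. Gap43, which encodes a growth cone protein, fell by 0.17 per somite (SE 0.043, edgeR adjusted p = 0.0391), from 24.1 ± 8.41 to 14.4 ± 2.0 CPM. Its call was lost without replicate 2 at 6, 1 or 3 at 7, 1 at 8, 2 at 9, 1 or 3 at 10 or 1 or 2 at 11 somites, with edgeR adjusted p-values up to 0.0953, without the 2 libraries richest in ribosomal RNA (0.0583) and in females alone (0.128). Ebf2, an early neuronal transcription factor, rose from 0.12 ± 0.25 to 1.20 ± 0.787 CPM (slope 0.96, SE 0.208, edgeR adjusted p = 0.0141), a call lost without replicate 1 at 11 somites (0.0505) and in females alone (0.134).

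Several defining neuronal genes were near 0 in this tissue. Neurog1 had no count in 31 of the 37 embryos and Neurod4 in 36, and 12 of the 38 genes were at 0 in the majority of embryos. Dcx, a microtubule protein of migrating neurons, was at 0 in 21 embryos. Others were present, such as Stmn2 at a median of 43.0 CPM and Tubb3 (neuronal tubulin) at 17.6 CPM, and 15 of the 38 had a median of 1 CPM or more. The summed level of the list ran from 313 to 379 CPM at 6 and 7 somites and from 325 to 414 CPM at 10 and 11 somites in Smchd1matΔ embryos, and from 252 to 352 and 203 to 460 CPM in Smchd1wt embryos. The ranges of this sum overlapped between early and late embryos in both genotypes. The sum was carried by few genes, among them Dll1 (median 104 CPM) and Dll3 (38.9 CPM), Notch ligands that are presomitic mesoderm markers too, Uchl1 (45.9 CPM) and Stmn2.

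Among 19 tested genes of neural progenitors, Nkx6-1, a ventral neural tube factor, fell (-0.77 per somite, SE 0.174, edgeR adjusted p = 0.017) and none rose. At an unadjusted p under 0.05 there were 6 of the 19, and DESeq2 called 4. Over all genes 3.07% were called and 17.5% were under 0.05. Nkx6-1 was low, with 2.83 ± 2.75 CPM (0 to 8.14) at 6 and 7 somites and 0.45 ± 0.251 CPM at 10 and 11 somites. In Smchd1wt embryos it had 0.594 ± 0.433 and 0.547 ± 0.256 CPM and was not tested for a slope. The Nkx6-1 call was lost without the 2 libraries richest in ribosomal RNA (edgeR adjusted p = 0.0959). The slope was -0.13 for Sox2 (edgeR adjusted p = 0.219).

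Genes known from germ cells, as Tcfl5 is, formed another list. Of 12 genes, 6 were tested, and 0 passed in either direction with edgeR in either genotype (3 at an unadjusted p under 0.05 and 2 called by DESeq2 in Smchd1matΔ embryos). With 3.07% of all genes called and 17.5% at an unadjusted p under 0.05, a count of 0 among 6 says little of this list. The slopes in Smchd1matΔ embryos were 0.18 for Mybl1, a regulator of meiotic genes (adjusted p = 0.119), -0.22 for Ddx4, a germ cell helicase (adjusted p = 0.161), and 0.24 for Dppa3 (adjusted p = 0.246), all genes at a few CPM. Of 20 other helix-loop-helix genes, all tested, 0 passed with edgeR (4 at an unadjusted p under 0.05, 2 called by DESeq2), and Myc had the lowest adjusted p (slope -0.13, adjusted p = 0.0665). The median slope of the helix-loop-helix list was 0.0039, close to that of all genes.

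Markers of the cells of the tailbud gave the setting. Of 21 tested genes of the primitive streak and its axial progenitors, 7 fell and 3 rose in Smchd1matΔ embryos, where 1.14% and 1.93% of all genes did. In Smchd1wt embryos 20 were tested, and 6 fell and 1 rose, where 3.51% and 3.13% of all genes did. Cdx1, a caudal homeobox gene, fell by 0.46 per somite (SE 0.061, edgeR adjusted p = 0.000237), from 170 ± 56.5 to 47.6 ± 12.6 CPM, and Cfc1, a Nodal co-receptor, fell by 0.66 (SE 0.076, edgeR adjusted p = 5.94e-05). Cyp26a1, which degrades retinoic acid, rose by 0.30 (SE 0.041, edgeR adjusted p = 0.000247), and the slope of T (brachyury) was 0.05 (adjusted p = 0.484). The summed level of this list overlapped between 6 and 7 somites (2561 to 3388 CPM) and 10 and 11 somites (2285 to 3062 CPM).

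Some markers of other cell types that a tailbud dissection could hold also changed with stage in Smchd1matΔ embryos, where 1.93% of all genes rose and 1.14% fell. Of endothelial genes 3 of 9 rose and 0 fell, and of erythroid genes 2 of 9 rose and 0 fell. Of presomitic mesoderm genes 1 of 8 rose (Dkk1), with a list median of -0.0031. Of neural crest genes Sox9 and Tfap2a had slopes of -0.10 and -0.05. Only 1 of 4 rose, too few to show a change of that cell type (Ets1, a call lost without the 2 libraries richest in ribosomal RNA). The endothelial call of Cdh5 (VE-cadherin) was lost without that pair (edgeR adjusted p = 0.087) and without replicate 2 at 6, 1 at 7, 3 at 10 or 2 at 11 somites. The erythroid calls, of Hbb-y (an embryonic globin, slope 1.02) and Slc4a1 (the red cell anion exchanger, 0.87), were lost without that pair (0.0503 and 0.0645) and without replicate 2 at 11 somites (0.0768 and 0.109), and that of Slc4a1 also without replicate 1 at 7 somites (0.0564) and in females alone (0.0835). DESeq2 gave an adjusted p to 1 of the 9 erythroid genes, neither of these, so it offered no call to compare. None of 4 somite, 6 node and notochord, 11 endoderm or 8 surface ectoderm genes passed edgeR's test in Smchd1matΔ embryos, with 1, 2, 2 and 4 at an unadjusted p under 0.05 and 0, 1, 0 and 0 called by DESeq2. In Smchd1wt embryos 4 of 11 endoderm genes fell and 1 rose, where 3.51% and 3.13% of all genes did. The summed endoderm level had a median of 1495 CPM at 6 and 7 somites (760 to 2168) and of 307 CPM at 10 and 11 somites (157 to 3564) in Smchd1matΔ embryos, and of 1736 (640 to 3556) and 383 CPM (121 to 3985) in Smchd1wt embryos. The part of this endoderm content in the neurofilament and Tcfl5 levels was not tested. In no list did any gene pass the test of genotype over all stages with edgeR or DESeq2, and at an unadjusted p under 0.05 a list held 0 to 5. List medians of the genotype difference ran from -0.11 (neural crest) to 0.65 (somite), beside -0.0023 over all genes. They were 0.22 for neuronal differentiation and 0.26 for neural progenitors. Whether the differences of the members go with these was not tested.

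Likeness to other genes was measured over 14884 genes as the correlation of log2 CPM across the 37 embryos, which share stages, depth and some reads, and is given as a description. As measured, the genes most like Nefl were Nefm (r = 0.92), Epha1 (0.87), Rxrg (0.86), Cdx1 (0.85) and Olfml2a (0.85). Those most like Nefm were Nefl (0.92), Epha1 (0.90), Zscan10 (0.89), Plcg2 (0.88) and Ldhb (0.88). Those most like Tcfl5 were Cyfip2 (0.85), Ldhb (0.84), Cdx1 (0.84), Gm19553 (0.82) and the pluripotency factor Pou5f1 (0.82). Epha1 was thus shared by Nefl and Nefm, Cdx1 by Nefl and Tcfl5, and Ldhb by Nefm and Tcfl5. Tcfl5 correlated with Nefl at 0.73 and with Nefm at 0.78, and Nefh with Nefl at -0.13.

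With the mean of each genotype and stage subtracted, what remains is the covariation of embryos of the same group. Nefl and Nefm still came together (r = 0.69, Nefm ranking first for Nefl and Nefl ranking 6 for Nefm), a pair that shares exonic bases. Tcfl5 and Nefl had 0.19 and Tcfl5 and Nefm 0.34, lower than the 0.73 and 0.78 with the stages left in. Without the library with no Nefh count they had 0.13 and 0.19. Genes most like Nefl were then, after Nefm, Kif1c, Pla2g4b and Pisd (each 0.58), those most like Nefm were Fchsd1 (0.78), Fgf3 (0.72), Gprc5a, Edc4 and Calr3 (each 0.69), and those most like Tcfl5 were Hcn2 (0.76), Zfp703 (0.74), Irx3os, Bak1 (each 0.73) and Gm19553 (0.71). Without the library with no Nefh count, 3 of the 5 genes most like Nefl remained among its 5, 1 of those of Nefm (Fchsd1) and 1 of those of Tcfl5 (Hcn2), so these lists too depended on that library.

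For Nefh the genes at the top on the same scale were Atp6v0e2 (0.90), Dclk1 (0.89), Clip4 (0.88), Dcc (0.88) and Naa35 (0.88). Without the library with no Nefh count they were Mcm3 (0.88), Cdca7l (0.88), Ccnd1 (0.88), Hmgcll1 (0.87) and Dpysl5 (0.87), with no gene in common. The genes most like Nefh over all embryos thus depended on that 1 library. Without it, Nefh correlated with Nefl at 0.23 and with Nefm at 0.34 within groups, against -0.01 and -0.15 over all 37 embryos.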

How the data were processed

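RNA-seq of 37 single tailbuds was analysed, with groups from the labels' genotype, somite number and sex. As the labels and methods describe, the authors made poly(A) libraries with a stranded or unstranded TruSeq kit (which library had which was not stated), trimmed reads with Trim Galore 0.4.4, mapped them with HISAT2 2.0.5 to GRCm38.p6 and counted them per gene in SeqMonk. The deposited counts per gene, raw whole numbers without normalization, were used. A deposited table of log2 RPKM of Hox genes and a table of the authors' own comparisons (p-values and fold changes of the genes called) were not used. No column was without a sample.

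Of 35591 rows, 49 duplicates were dropped, leaving 35542 genes, and 26 names altered by a spreadsheet were restored. Genes were filtered with filterByExpr (minimum count 10), scaled by TMM and tested with edgeR 4.0.16 (R 4.3.3, limma 3.58.1) by the quasi-likelihood test with Benjamini-Hochberg adjustment over all genes tested and a threshold of 0.05. SE is the log2 value divided by the root of F, and 95% intervals are 1.96 SE on either side. DESeq2 1.42.0 was an alternative, as were other scaling, no filter, no sex covariate, females alone, a replicate block and leaving out single libraries. Fits without the 2 libraries richest in ribosomal RNA and without libraries under 4000000 counts were made too. Nefm less its predicted Nefl reads, Nefl less its predicted Nefm reads, ratios of members and likeness without the library with no Nefh count were chosen after seeing the data. Figures and permutation tests used Python 3.11.15, numpy 2.4.6, pandas 2.3.3, scipy 1.17.1 and matplotlib 3.10.9. Scripts were tested on simulated data. Within groups, pairs of libraries differed by more than sampling noise (chi-square per degree of freedom 5.12 to 72.3 over 42 pairs), so every library was kept. Where the labels name no litter, p-values measure the spread between these embryos. Sequences come from GRCm38 with GENCODE M21 and the RefSeq promoter table.

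The members, the 14 gene lists and the tests were chosen with earlier results of these data known. Besides the members, the rule for named genes took the 3 genes of each list with the smallest p for the slope in Smchd1matΔ embryos, a few genes whatever their values (Ina, Prph, Vim, Nes, Mybl1, T, Sox2 and Smchd1) and the 5 genes most like each member by correlation of log2 CPM (prior count 2). Neurog1, Neurod4, Dcx, Dll3, Uchl1, Stmn2 and Tubb3 were named after their values were seen. Genes withheld from this text are not reported here.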

Additional observations from a re-analysis of the deposited data

Results flagged for a closer look

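The 4 genes were checked in the 4 groups of 4 embryos, 16 sets of values, and the lowest embryo stood apart from the others in 2, where about 1 in 20 sets would by chance. Nefl was 14.9 CPM in Smchd1wt embryo replicate 2 with 6 somites, below the other embryos of that group at 17.5, 17.5 and 17.6 CPM, with a gap of 0.941 of the whole range. Nefh was 0.593 CPM in Smchd1wt embryo replicate 1 with 10 somites, below 4.01, 4.16 and 3.80 CPM in the others, with a gap of 0.899 of the range, and this rested on 5 counts.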

How the results depend on the processing

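Values are log2 units (per somite for slopes). The Smchd1matΔ slopes of Nefl and Nefm kept their sign under every alternative, and the Nefm call held in all of them. In females alone the slope was -0.19 for Nefl and -0.16 for Tcfl5, both past the threshold no longer (edgeR adjusted p = 0.072 and 0.177). Without the 2 libraries richest in ribosomal RNA it was -0.15 for Tcfl5 (edgeR adjusted p = 0.11). The cause of these changes was not tested, and females alone have fewer embryos. For Nefh, Smchd1matΔ replicate 1 at 6 somites set the sign of the slope: leaving out single libraries gave -0.024 to 0.071, and leaving out the ribosomal RNA-rich pair gave -0.012. Leaving out single libraries gave -0.18 to -0.14 for Tcfl5.

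The replicate numbers were not taken as a pairing: of 16 pairs of same-numbered embryos of both genotypes, 4 had deviations correlated above 0.1 (range -0.286 to 0.639). The highest were both pairs at 9 somites (0.639 and 0.392) and replicate 3 at 10 somites (0.351). At 9 somites the Smchd1matΔ group held 2 embryos, whose deviations mirror each other, so those values are not independent. Whether some embryos were handled together was not tested. With the replicate block, the genotype difference of Tcfl5 was -0.0015 over all stages, -0.039 at 6 to 8 somites and -0.039 at 7 somites, that of Nefl at 6 somites 0.0060, that of Nefm at 9 somites -0.0083, and the late step of Nefh -0.17. The block called 1 gene for genotype over all stages, 5 at 6 to 8 somites and 37 in the early step, and changed no call of a member.

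Other sign changes were all in values under the threshold. For Nefl at 6 somites these were 0.0088 with size factors (RLE), 0.013 with no filter and 0.0092 with DESeq2. For Tcfl5 at 7 somites they were -0.0056 with size factors, -0.0064 with DESeq2 and -0.0020 without the ribosomal RNA-rich pair, which also gave -0.080 for Tcfl5 at 6 to 8 somites, -0.25 for Nefm at 6 somites, -0.12 for the early step of Nefh, and slopes of 0.0024 for Meox1 and 0.16 for Tcf15. With no sex covariate Tcfl5 at 10 somites was -0.030 and the late step of Nefh -0.076. In females alone Nefm at 11 somites was -0.14, Nefh at 11 somites 0.17 and the Vim slope -0.00087. The sex difference of Nefm was -0.0060 less its predicted Nefl reads.

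Leaving out single libraries gave genotype differences at 6 somites of -0.061 to 0.018 for Nefl, -0.13 to 0.18 for Nefm and -0.27 to 0.55 for Nefh. At 7 somites it gave -0.15 to 0.10 for Nefm and -0.17 to 0.14 for Tcfl5. At 8 somites it gave -0.095 to 0.28 for Nefl, -0.023 to 0.47 for Nefm, -0.19 to 0.56 for Nefh and -0.036 to 0.37 for Tcfl5. It gave -0.024 to 0.36 for Nefl at 9 somites, -0.044 to 0.31 for Nefl and -0.095 to 0.20 for Tcfl5 at 10 somites, and -0.47 to 0.24 for Nefh at 11 somites. The ranges were -0.058 to 0.074 for Tcfl5 at 6 to 8 somites, -0.11 to 0.13 for Nefh at 9 to 11 somites, -0.17 to 0.24 for the early and -0.15 to 0.23 for the late step of Nefh, -0.040 to 0.11 for the sex difference of Nefm and -0.23 to 0.16 for the Tcf15 slope. Where a single library was left in an arm, it was assumed to vary like the other groups.

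Counts of genes called moved more. Genes that fell in Smchd1matΔ embryos were 177, but 67 in females alone, 492 with DESeq2, 286 without libraries under 4000000 counts and 100 to 286 without single libraries (100 without replicate 2 at 11 somites, 286 without replicate 3 at 6 somites). Genes that fell in Smchd1wt embryos were 1079 in females alone and 309 to 1078 without single libraries (309 without replicate 2 at 11 somites, 1078 without replicate 1 at 10 somites). Genotype over all stages called 1 gene in females alone and 4 with DESeq2. At 6 to 8 somites it called 10 with no filter, 0 in females alone, 31 with DESeq2, 1 without the ribosomal RNA-rich pair and 1 to 9 without single libraries. At 9 to 11 somites it called 0 in females alone and 14 with DESeq2. The early step called 53 with no filter, 8 in females alone, 80 with DESeq2, 0 without the ribosomal RNA-rich pair and 0 to 45 without single libraries. The late step called 8, 15 and 1 under no filter, DESeq2 and without that pair, and 0 to 3 without single libraries.

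Depth limits Nefh most, at a median of 42 counts per library, and no genotype difference of a member passed the test.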
